A study of Mus musculus with 14 samples.

Results

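Broad stretches of accessible chromatin in regulatory T (Treg) cells were taken from a table of ATAC-seq read counts in 240778 windows of 201 bp. ATAC-seq uses a transposase that inserts sequencing adapters mainly into open DNA. Windows on the same chromosome were joined whenever the next start did not lie above the running end, which gave 158380 regions, and a region built from at least 5 windows was called broad. There were 2899 broad regions, 1.83% of all regions, and they held 16374 windows, 6.80% of all windows. The rule used window positions and no count, although the windows themselves had been placed at summits of peaks called from these libraries. Of the broad regions, 1774 were joined from 5 windows, 682 from 6, 261 from 7 and 182 from 8 or more, with a maximum of 17. Just outside the rule lay 4589 regions of 4 windows, with a median of 1.41 counts per 1000000 counts of the library (CPM) per window against 1.42 in the regions of 5.

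The libraries came from Treg cells of spleen and lymph nodes of Foxp3-AID mice, in which Foxp3 is fused to an auxin-inducible degron. In ROSA26-TIR1(F74G) animals (R26TIR1(F74G)) the degron receptor is present, so that the ligand 5-ph-IAA leads to degradation of the fusion protein, and ROSA26-WT animals (R26WT) lack it. All mice of both genotypes carried Foxp3-AID and received 5-ph-IAA, for 3 or 7 days by the labels. There were 4 R26WT and 4 R26TIR1(F74G) mice on day 3 and 3 of each on day 7, 14 libraries in all, and each library was 1 mouse. The TIR1 cassette is read only after a Cre recombinase expressed from the Foxp3-AID allele has removed a stop signal. By the study's methods, Treg cells of R26WT mice were sorted by the ZsGreen reporter of that allele and those of R26TIR1(F74G) mice by ZsGreen and mCherry, so the gates differed between genotypes. The study's text places resting and activated cells of mice heterozygous for Foxp3-AID behind its accessibility data of day 7. The labels used here name neither the activation state of a library nor the zygosity or age of a mouse, so libraries may differ in these.

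Most open sites in a nucleus are short gaps between nucleosomes at promoters and enhancers, where transcription factors displace a histone octamer. Longer open stretches are known from clusters of enhancers and from CpG-rich promoters. Foxp3, the lineage factor of Treg cells, binds mostly at sites that other T cell factors have already opened.

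Each library held between 5653289 and 20184487 counts in windows, and the shallowest were R26TIR1(F74G) replicate 1 on day 3 and R26WT replicate 3 on day 7, with 6348754. Within 1 kb of their start sites, 5 of 6 genes of T and Treg cells (Il2ra, Ctla4, Ikzf2, Cd3e and Cd4, but not Foxp3) had a window, with a sum of 53.7 to 74.5 CPM per library. For B cells this held for 3 of 10 genes, with 7.81 to 11.4 CPM in R26WT and 10.8 to 15.1 CPM in R26TIR1(F74G) mice on day 3, and with 9.43 to 14.8 CPM and 7.65 to 13.4 CPM on day 7. Ms4a1 and Cd79a, which define B cells, had no window at their start sites. The 4 of 10 myeloid genes with such a window summed to 11.3 to 14.3 CPM, with none at Lyz2 or Csf1r, the 1 of 3 NK cell genes (Eomes, not Ncr1 or Klrb1c) to 4.26 to 5.97 CPM, and both CD8 genes to 11.3 to 15.5 CPM, most of it at Cd8b1.

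The sequences under broad regions can be shown where a listed promoter lies in one. Of 32619 promoters in RefSeq (300 bases around each start, build GRCm38.p6), 194 of 181 genes had at least 150 of their 300 bases inside a broad region. Printed here are promoters in broad regions of high level (Fbrsl1, Mkrn1, Clasp2, Zfp367, Rfx7), in one of the 2 regions that tie for most windows among the 194, with 10 (Tcte2), at a T cell gene and at a gene met again in the results (Prkcq, Vegfc), and 2 that are poor in CpG (Maml2, Cd38). Each runs 5′ to 3′ on the gene's strand, and capitals mark CG dinucleotides.
Fbrsl1: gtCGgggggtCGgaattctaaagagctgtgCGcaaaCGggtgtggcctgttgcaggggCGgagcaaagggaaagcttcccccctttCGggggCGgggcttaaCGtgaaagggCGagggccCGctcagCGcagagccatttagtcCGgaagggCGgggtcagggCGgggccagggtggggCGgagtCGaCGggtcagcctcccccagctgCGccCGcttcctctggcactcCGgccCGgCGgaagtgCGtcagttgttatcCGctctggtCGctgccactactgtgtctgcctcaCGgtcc
Mkrn1: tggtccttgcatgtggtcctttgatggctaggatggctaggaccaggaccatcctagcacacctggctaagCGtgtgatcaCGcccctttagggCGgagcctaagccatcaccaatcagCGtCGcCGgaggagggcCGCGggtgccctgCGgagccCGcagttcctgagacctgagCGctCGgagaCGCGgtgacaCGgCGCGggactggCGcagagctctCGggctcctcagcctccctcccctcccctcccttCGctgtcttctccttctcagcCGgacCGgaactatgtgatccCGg
Clasp2: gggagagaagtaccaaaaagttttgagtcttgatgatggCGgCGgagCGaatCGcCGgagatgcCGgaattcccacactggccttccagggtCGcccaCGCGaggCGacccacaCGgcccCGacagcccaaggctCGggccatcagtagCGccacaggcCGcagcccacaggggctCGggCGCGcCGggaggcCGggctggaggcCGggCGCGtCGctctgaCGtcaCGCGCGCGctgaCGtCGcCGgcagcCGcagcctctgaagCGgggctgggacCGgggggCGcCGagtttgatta
Zfp367: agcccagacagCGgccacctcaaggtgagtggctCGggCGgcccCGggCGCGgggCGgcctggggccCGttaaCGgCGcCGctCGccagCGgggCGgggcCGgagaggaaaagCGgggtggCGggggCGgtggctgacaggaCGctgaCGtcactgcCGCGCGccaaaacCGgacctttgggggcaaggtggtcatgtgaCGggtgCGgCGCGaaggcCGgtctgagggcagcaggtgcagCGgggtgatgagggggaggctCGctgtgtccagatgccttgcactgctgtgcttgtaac
Rfx7: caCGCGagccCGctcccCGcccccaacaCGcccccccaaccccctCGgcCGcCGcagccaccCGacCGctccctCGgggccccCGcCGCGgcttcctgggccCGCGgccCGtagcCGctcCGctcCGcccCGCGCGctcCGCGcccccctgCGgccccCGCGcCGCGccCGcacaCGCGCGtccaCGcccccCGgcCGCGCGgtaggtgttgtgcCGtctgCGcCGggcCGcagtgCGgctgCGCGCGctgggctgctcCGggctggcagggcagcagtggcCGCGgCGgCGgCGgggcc
Tcte2: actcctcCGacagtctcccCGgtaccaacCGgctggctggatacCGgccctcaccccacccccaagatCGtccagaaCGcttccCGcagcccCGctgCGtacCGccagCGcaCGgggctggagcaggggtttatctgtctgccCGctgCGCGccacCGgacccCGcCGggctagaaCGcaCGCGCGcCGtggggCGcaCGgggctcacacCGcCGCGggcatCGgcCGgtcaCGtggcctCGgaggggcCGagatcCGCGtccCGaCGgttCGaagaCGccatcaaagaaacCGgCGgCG
Prkcq: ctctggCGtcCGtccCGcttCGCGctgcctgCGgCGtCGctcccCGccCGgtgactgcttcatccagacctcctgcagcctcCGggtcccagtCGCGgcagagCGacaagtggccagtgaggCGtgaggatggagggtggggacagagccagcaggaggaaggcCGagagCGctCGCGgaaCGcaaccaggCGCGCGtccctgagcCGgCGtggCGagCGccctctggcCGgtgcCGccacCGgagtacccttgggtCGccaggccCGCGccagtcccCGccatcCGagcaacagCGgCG
Vegfc: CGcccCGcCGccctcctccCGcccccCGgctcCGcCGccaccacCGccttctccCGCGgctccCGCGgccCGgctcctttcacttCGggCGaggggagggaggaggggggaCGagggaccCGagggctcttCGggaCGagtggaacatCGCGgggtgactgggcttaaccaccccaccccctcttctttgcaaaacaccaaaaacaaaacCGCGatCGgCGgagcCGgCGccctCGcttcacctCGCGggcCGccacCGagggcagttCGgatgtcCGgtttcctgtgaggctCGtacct
Maml2: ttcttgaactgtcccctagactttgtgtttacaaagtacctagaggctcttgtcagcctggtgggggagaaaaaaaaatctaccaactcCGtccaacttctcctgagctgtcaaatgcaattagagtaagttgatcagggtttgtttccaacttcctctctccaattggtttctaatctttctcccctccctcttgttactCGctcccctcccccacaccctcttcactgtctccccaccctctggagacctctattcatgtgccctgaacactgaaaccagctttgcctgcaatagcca
Cd38: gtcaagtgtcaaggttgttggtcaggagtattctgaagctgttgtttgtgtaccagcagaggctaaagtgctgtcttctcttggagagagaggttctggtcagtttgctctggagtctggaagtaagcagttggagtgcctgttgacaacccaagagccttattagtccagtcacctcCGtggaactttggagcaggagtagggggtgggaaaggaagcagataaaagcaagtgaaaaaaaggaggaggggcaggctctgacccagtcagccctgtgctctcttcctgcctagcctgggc

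The Fbrsl1 promoter (chr5:110448454-110448753, minus strand) had 299 of its bases inside its broad region, 26 CG dinucleotides and 5 matches to GGGCGG. Mkrn1, which encodes a ubiquitin ligase, contributed a promoter inside the annotated gene (chr6:39420320-39420619, minus strand) with 23 CG. Clasp2, for a protein that binds microtubule ends, did so too (chr9:113741223-113741522, plus strand) with 37 CG. The promoters of the zinc finger gene Zfp367 (chr13:64152324-64152623, minus strand), of Rfx7, for a transcription factor (chr9:72531990-72532289, plus strand), and of Tcte2 (chr17:13761354-13761653, minus strand) held 31, 53 and 42 CG. Prkcq, for the protein kinase C theta of T cell receptor signalling (chr2:11172132-11172431, plus strand), held 37, and Vegfc, for a growth factor of lymphatic vessels (chr8:54077282-54077581, plus strand), 35. By contrast, 2 CG lay in the promoter of Maml2, a coactivator of Notch (chr9:13297708-13298007, plus strand), and 1 in that of Cd38, an enzyme that degrades NAD (chr5:43868559-43868858, plus strand).

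Over all 194 promoters, the median GC content was 64.8% and the median ratio of observed to expected CpG was 0.72, against 62.0% and 0.80 for 7408 promoters with at least 150 bases inside a single window, and 53.0% and 0.39 for all promoters. A GC content of at least 50% with a ratio of at least 0.6 was found for 59.8% of promoters in broad regions, 74.5% of those in single windows and 33.7% of all. Motifs were searched as exact letters on both strands, and none of them contains another. The ETS core CCGGAAG was in 4.64% of promoters in broad regions, 11.6% of those in regions of 2 to 4 windows, 21% of those in single windows and 8.92% of all. The GC box GGGCGG was in 63.4%, 63.9%, 68.0% and 35.9% of the same classes, and TATAAA in 6.19%, 6.19%, 5.47% and 13.7%. TGAGTCA, the AP-1 site, was in 5.15% of promoters in broad regions against 5.22% of all, TGTGGT, the Runx core, in 11.9% against 16.6%, and the forkhead core TGTTTAC in 5.15% against 3.67%. The shares of broad regions rest on few promoters, and genes with several starts count more than once. No test was made.

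Broad regions were long but weak. Their median length was 608 bp, with a range of 358 to 1756 bp. Over all 14 libraries the median level was 1.40 CPM per window (quartiles 1.09 and 2.04), whereas single windows had a median of 2.68 (quartiles 1.34 and 6.13). In mean counts, 75.6% of the windows in broad regions and 41.1% of single windows were below 30. Windows of broad regions made up 0.585% of the 20000 windows of highest mean count, against the 6.80% they made up of all windows. Regions joined from 2, 3 and 4 windows had medians of 1.53, 1.44 and 1.41 CPM. The median thus fell between 1 and 2 windows and varied little from there on. The upper quartile kept declining, from 2.83 CPM at 2 windows to 1.75 CPM at 8 or more.

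**Figure D1:**
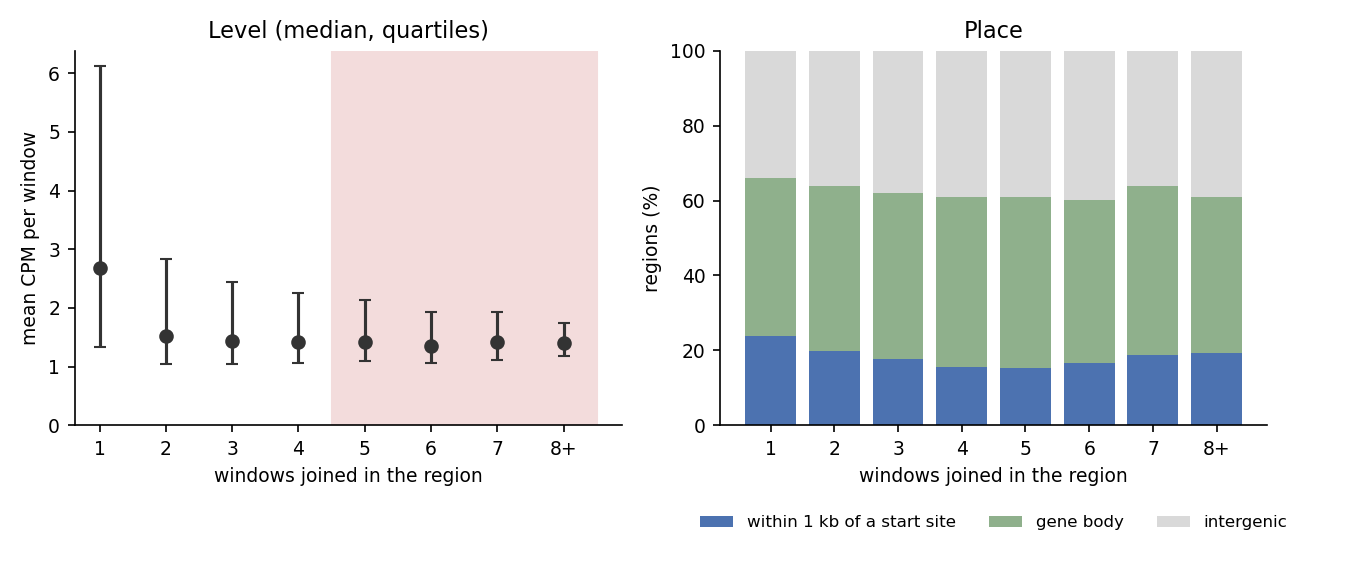
Left, mean CPM per window of regions by the number of windows joined, as medians (points) with quartiles (bars), the broad regions shaded. Right, the share of regions within 1 kb of a protein-coding start site, in a gene body or intergenic. Single windows stand apart at a median of 2.68 CPM, and broad regions lie near 1.40 CPM with fewer start sites.

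Along a broad region accessibility was nearly flat. In regions of 5 windows the median was lowest in the first window, 1.42 CPM in the second, 1.47 in the third and the fourth and was 1.41 in the fifth, and regions of 6 or 7 windows had the same shallow dome. The highest window exceeded the lowest by a median of 1.36 times, and in 92.1% of broad regions by less than 2 times. The highest window stood at an edge in 951 regions, 32.8%, where 36.4% would be at an edge if every position were alike. Windows overlapped heavily, with a median of 79 bp between neighbouring starts (quartiles 52 and 129), so that a base of a broad region was covered by a median of 1.81 windows.

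Overlapping windows can share reads, although how such reads were assigned is not given in the sources used here. For pairs of windows in a broad region, the correlation over the 14 libraries of count residuals (count minus that expected from library size, over the square root of the latter, less the group mean) had a median of 0.934 when starts lay 1 to 50 bp apart (3218 pairs). The median was 0.634 at 151 to 201 bp, where the windows barely overlap, and 0.455 at 202 to 300 bp, where they do not. It was 0.304 at 301 to 400 bp and 0.166 at 601 to 1000 bp. For windows of different regions 5 to 20 kb apart it was 0.0632 (26744 pairs). These values are descriptions, and pairs share both libraries and windows. Counts of overlapping windows thus went largely together, so a call of 2 such windows is not 2 independent results. A sum over a region counts reads more than once if reads were counted in every window they overlap. The part of shared reads in these correlations was not tested. Between mice of a group, the SD of log2(CPM + 0.5) had a median of 0.35 in windows of broad regions with a mean count of 10 to 20 and 0.34 in single windows of that level. At a mean count of at least 100 the medians were 0.19 and 0.18.

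**Figure D2:**
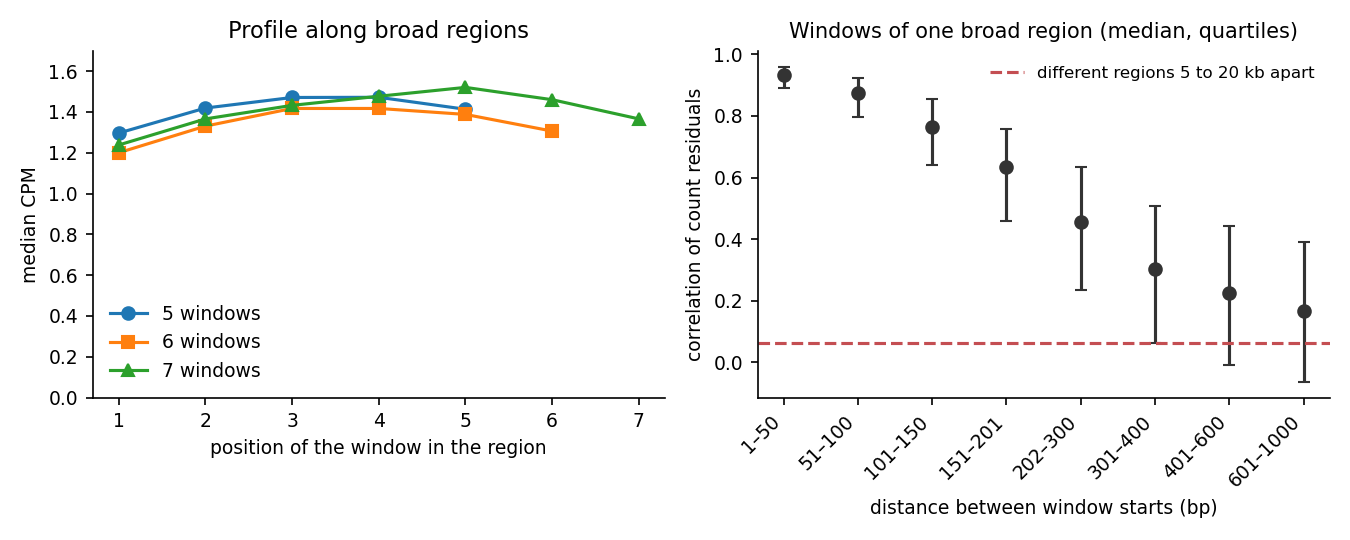
Left, median CPM by position of the window in broad regions of 5, 6 and 7 windows. Right, median correlation of count residuals over the 14 libraries for pairs of windows of one broad region by the distance between their starts, with quartiles as bars, and for windows of different regions as a dashed line. Profiles are nearly flat, and the correlation declines from 0.934 to 0.166.

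Broad regions lay farther from start sites than regions as a whole. Of the 2899, 469 (16.2%) were within 1 kb of a protein-coding start site, 1300 (44.8%) in a gene body and 1130 (39.0%) intergenic, compared with 22.3%, 42.8% and 34.9% of all regions. The median distance to the nearest start was 28281 bp against 17707 bp for all regions, and 21.9% against 14.9% lay more than 100 kb away. For 26 broad regions no start was within 1 Mb. Those at start sites had a median of 2.01 CPM per window, against 5.39 for all regions at start sites. By chromosome, the share of regions that were broad ranged from 1.45% on chromosome 9 to 2.16% on chromosome 12.

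The longest run of windows, 17, covered chr3:127697465-127699221 in the body of Alpk1, 64732 bp from the start of Neurog2, a proneural transcription factor. Its level per window was 1.39, 1.61, 1.13 and 1.09 CPM in the R26WT mice of day 3 and 1.59, 0.833, 2.02 and 1.76 in the R26TIR1(F74G) mice. On day 7 it was 1.60, 1.3 and 1.49 CPM in R26WT and 1.21, 1.09 and 1.19 in R26TIR1(F74G) mice, so the day 7 groups did not overlap while those of day 3 did. The adjusted p of edgeR was 0.819 on day 7 (log2 fold change −0.33) and 0.805 on day 3 (0.26). Here and below, the share of all regions whose groups do not overlap was not counted. Next came 13 windows in the body of Fcamr, a receptor for IgA and IgM (chr1:130797300-130798579, 1.46 CPM). Runs of 12 lay in Map3k5, a stress kinase (1.11 CPM), in Hivep3 with Edn2, an endothelin, as nearest start (0.964 CPM), and between genes near Cxxc5 (2.13 CPM) and Kank1 (1.01 CPM). Extl1, for a glycosyltransferase of heparan sulfate synthesis, was the one of the 12 regions with most windows that lay at a start site (11 windows, 508 bp away, 1.73 CPM). The region of 11 windows near Sval2 held 1.10, 1.02, 0.82 and 0.82 CPM in R26WT mice on day 3. R26TIR1(F74G) mice held 2.55, 1.17, 1.80 and 1.645 CPM, all higher (log2 fold change 0.91, SE 0.18, adjusted p = 0.431, edgeR). On day 7 it held 0.652, 0.497 and 2.13 against 0.749, 0.607 and 0.754 CPM, with overlapping groups. The 2.55 and 2.13 CPM came from the shallowest libraries, R26TIR1(F74G) replicate 1 of day 3 and R26WT replicate 3 of day 7.

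A few broad regions were strong. At least 5 CPM per window was reached by 4.24%, of which 63 lay at start sites, and at least 10 CPM by 22. The highest covered the start of Fbrsl1 (chr5:110448455-110449028, 6 windows), whose promoter is printed above, with 28.0 to 34.3 CPM in R26WT and 25 to 30.9 CPM in R26TIR1(F74G) mice on day 3. On day 7 it held 26 to 30.2 and 26.7 to 30.3 CPM, so genotypes overlapped on both days. Among the next highest were the start of Smad7, an inhibitor of TGF-β signalling (28.3 CPM), and regions in Dek, a chromatin protein (16.6 CPM), Cytip, an adaptor that regulates adhesion (16.5 CPM), and Mkrn1 (16.3 CPM). P2rx4, an ion channel opened by ATP, had 16.2 CPM at its start and Clasp2 15.6 CPM. Across these 7, the edgeR log2 fold change between genotypes lay between −0.21 and 0.17 on day 7 and between −0.18 and 0.02 on day 3.

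By nearest start site, 2221 of 21184 protein-coding genes (10.5%) had a broad region. Mdfic, which encodes a MyoD family inhibitor domain protein, had 14 among 127 regions, from 63 to 508773 bp from its start, followed by the adhesion receptor Adgrl2 with 9 and Tox, a nuclear factor of T cell development and exhaustion, with 8. Genes with many regions of any size have more chances to hold a broad one, so shares of regions are given too. Within 10 kb of each other lay 281 broad regions (9.69%) in 139 groups, of which 3 had 3 members, near Wdr37, Zfp36l1 and Cxcr5.

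Of 21 transcription factors of the T lineage, 13 had a broad region (40 in all), which was 2.37% of their 1685 regions against 1.82% for all genes. Most windows were joined near Tox (9 windows, 436387 bp away, 1.36 CPM), Ets1 (8, 123003 bp, 3.31 CPM) and Id2 (8, 69050 bp, 0.866 CPM). Foxo1 and Lef1, which maintain resting T cells, followed (7 each, 230588 and 14300 bp away, 1.22 and 1.35 CPM). Of 11 factors of effector Treg cells, 7 had a broad region, and 14 of their 367 regions (3.81%) were broad. Among them were regions with Bhlhe40 (8 windows, 183331 bp away), Ahr (7, 43123 bp) and Irf4 (5, 92143 bp) as nearest start. That of Bhlhe40 lay inside Itpr1 and that of Irf4 inside Exoc2. Of 22 genes of Treg identity, 6 had a broad region, with 9 of 645 regions (1.40%). Itgb8, an integrin that activates TGF-β, had 9 windows in its body at 1.41 CPM, and Nrp1, a semaphorin receptor of thymic Treg cells, 7 at 2.87 CPM. Ikzf2, for Helios, had 5 windows at 3.48 CPM and Ctla4, an inhibitory receptor, 5 at 3.09 CPM.

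Of the other lists, T cell receptor signalling had 9 of 22 genes (13 of 726 regions, 1.79%, examples being Cd28, Cd4 and Cd5), cytokine signalling 7 of 19 (2.07%, Il6ra, Jak1), homing and adhesion 6 of 15 (1.81%, Cd44, Ccr6, Ccr8) and NF-kB 3 of 9 (2.2%, Nfkb1, Tnfaip3). AP-1, Egr and Nr4a factors had 2 of 13 (1.03%, Jun and Egr1), survival genes 1 of 6 (0.481%, Bcl2l11), ribosomal proteins 4 of 77 (0.928%) and heat shock genes 1 of 11 (1.00%, Hsp90aa1). Near Egr1, an early response factor, the broad region had 13.9 CPM, the highest in these lists. These are counts without a test.

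Among 10 genes chosen from those that the study describes as sensitive to Foxp3 degradation, 4 had at least 1 broad region. These were 2 of 29 regions for Il2ra, 5 of 81 for Id2, 1 of 33 for Izumo1r, and 3 for Sox4. Over all genes 1.82% of regions were broad. None was found for Il2rb (13 regions), Lrrc32 (41), Tnfrsf4 (8), Tnfrsf18 (8), Il7r (39) or Tcf7 (32). The values here are for the broad region of each gene with the most windows and, among equals, the highest level. That of Il2ra, the interleukin 2 receptor alpha chain, lay 6512 bp from the start (chr2:11635735-11636280, 5 windows) and held 6.03, 7.07, 6.86 and 7.46 CPM in R26WT and 6.69, 5.53, 6.66 and 7.08 CPM in R26TIR1(F74G) mice on day 3. On day 7 it held 6.90, 5.80 and 6.09 against 5.78, 6.45 and 5.97 CPM. The groups overlapped on both days, with log2 fold changes of −0.07 (adjusted p = 0.923, edgeR) and −0.05 (adjusted p = 0.973, edgeR). The regions of Izumo1r, the folate receptor 4 of Treg cells, Id2 and Sox4 were intergenic, 70369, 69050 and 69866 bp from these starts. Their log2 fold changes on days 3 and 7 were 0.20 and 0.05 for Izumo1r, −0.33 and −0.40 for Id2, and 0.22 and 0.25 for Sox4. None of the broad regions of these 4 genes passed in edgeR.

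The comparison of genotypes within a day asks whether accessibility changed once Foxp3 was degraded. On day 7, 2 of 16223 windows of broad regions passed an adjusted p of 0.05 in edgeR, both lower in R26TIR1(F74G) mice. Among all 237811 windows tested the percentage called by edgeR was 0.00463. An unadjusted p under 0.05 was found for 966 windows of broad regions (5.955%, against 5.95% of all windows tested). DESeq2 called 0 of all windows, whereas edgeR called the 2. Both lay in Mocos, which encodes the molybdenum cofactor sulfurase, as the eighth and ninth of 10 windows of the region chr18:24671776-24673110, 18284 bp from the start. The ninth window (chr18:24672722-24672923) held 10.9, 8.61 and 13.1 CPM in R26WT and 5.13, 6.02 and 4.91 CPM in R26TIR1(F74G) mice on day 7. All R26WT values were above all R26TIR1(F74G) values. The log2 fold change was −0.98 (SE 0.17, adjusted p = 0.0434, edgeR). It was −0.97 (SE 0.17, adjusted p = 0.0434, edgeR) in the eighth window, which overlaps the ninth and may share its reads. On day 3 the ninth window held 7.79, 8.14, 6.01 and 5.61 CPM in R26WT and 10.6, 4.29, 8.27 and 7.56 CPM in R26TIR1(F74G) mice, with overlapping groups and a log2 fold change of 0.09 (SE 0.18, adjusted p = 0.949, edgeR). The interaction of day and genotype in this window had an adjusted p of 0.504 (edgeR), so a difference between the days was not established. Across the 10 windows the day 7 log2 fold change ranged from −0.98 to −0.58, and it was negative in each. The call was lost with DESeq2 (adjusted p = 0.128), with all 14 libraries in the fit (0.139), and when the prefix of mouse names was a covariate (0.609), where 1 of the 6 mice, R26TIR1(F74G) replicate 3, has the prefix E. It was also lost without R26TIR1(F74G) replicate 1 (0.0974) or 3 (0.568) or R26WT replicate 1 (0.0510) or 3 (0.0677) for the ninth window, and without R26TIR1(F74G) replicate 1, 2 or 3 or R26WT replicate 3 for the eighth (0.0690 to 0.542).

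Summed over windows, none of the 2899 broad regions passed on day 7 in edgeR, where the percentage called among all 157269 regions was 0. Of the broad regions, 400 (13.8%) had an unadjusted p under 0.05, against 5.82% of all regions. DESeq2 called 10 of all regions, of which 3 were broad (Mocos, Irf1 and Map2k6). With only windows that do not overlap one another in the sum, 304 broad regions had an unadjusted p under 0.05. This alternative was chosen after the data were seen. With the highest window of each region alone, 174 broad regions had an unadjusted p under 0.05, against 400 with the sum. The share of all regions was not counted under these alternatives. The part of reads shared between windows in these counts was not tested. The region of Mocos held 8.59, 7.53 and 10.4 CPM per window in R26WT and 4.15, 6.02 and 4.60 in R26TIR1(F74G) mice (log2 fold change −0.84, SE 0.14, adjusted p = 0.623, edgeR). With windows that do not overlap one another, 5 of all regions passed. Of these 1 was broad, again that of Mocos (adjusted p = 0.0131, edgeR). A broad region 16403 bp from the start of Irf1, an interferon-regulated transcription factor (chr11:53786417-53786994), held 1.80, 1.59 and 1.72 CPM in R26WT and 3.20, 2.98 and 2.66 CPM in R26TIR1(F74G) mice (log2 fold change 0.80, SE 0.14, adjusted p = 0.623, edgeR). On day 3 the same region held 4.40, 2.77, 2.66 and 2.73 CPM in R26WT and 1.26, 2.83, 1.83 and 2.87 CPM in R26TIR1(F74G) mice, with overlapping groups, and the interaction did not pass (adjusted p = 0.688, edgeR). Near Map2k6, a kinase that activates p38, the values were 1.32, 1.29 and 1.47 against 2.47, 2.81 and 2.03 CPM (0.85, SE 0.16). Near Nkx2-5, a homeobox gene of the heart, they were 1.83, 1.93 and 2.01 against 0.973, 1.08 and 1.04 CPM (−0.89, SE 0.16). In these 4 regions the groups did not overlap, but the regions were named for the smallest p-values in their direction. The separation is thus no further support.

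**Figure D3:**
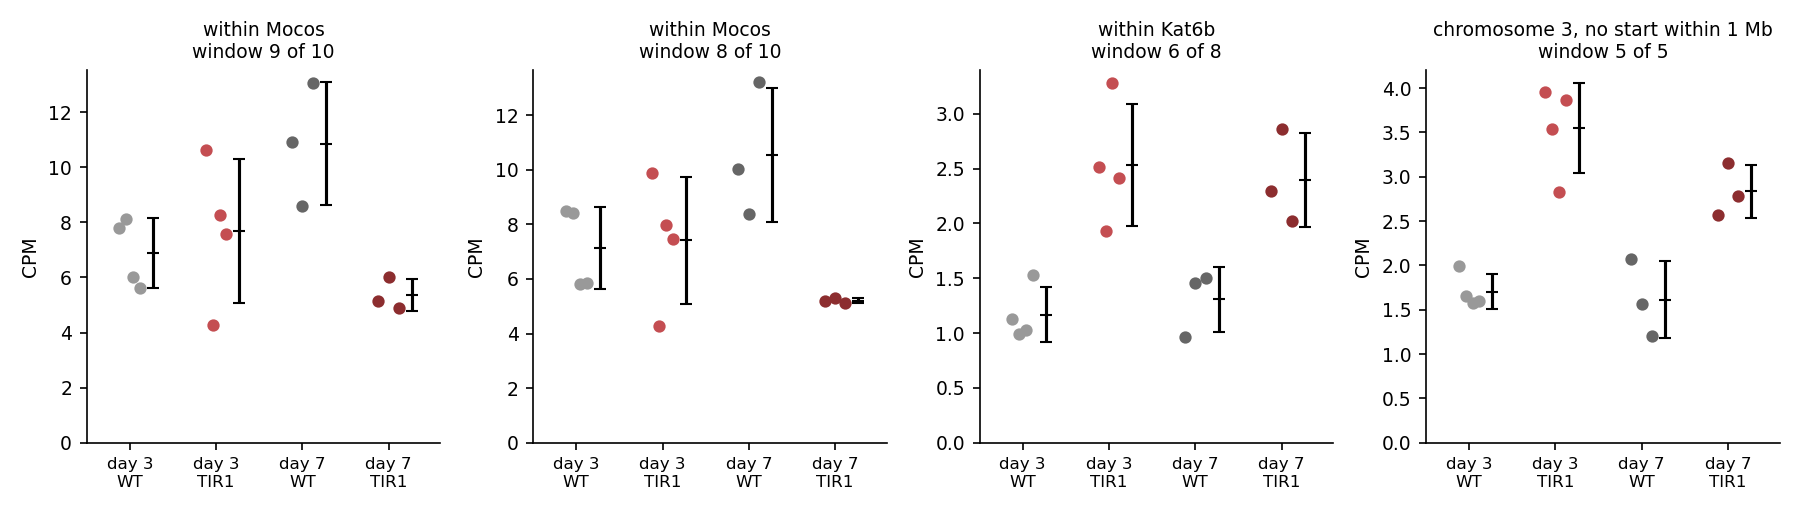
CPM by mouse (points) in the 4 groups, with mean and SD beside them, for the windows of broad regions that passed an adjusted p of 0.05 in a comparison of genotypes. On day 7 all R26TIR1(F74G) (TIR1) mice lie below all R26WT (WT) mice in both windows in Mocos, and on both days all TIR1 mice lie above all WT mice in the windows in Kat6b and on chromosome 3.

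On day 3, 0 of 16145 windows of broad regions passed in edgeR (percentage called among all 235515 windows, 0), and DESeq2 called 0. Of them 1205 (7.46%) had an unadjusted p under 0.05, against 7.55% of all windows tested. Without R26TIR1(F74G) replicate 1, the shallowest library, 30 of all windows passed, of which 5 lay in broad regions. Among these were those named near Plekhb1 (adjusted p = 0.0106 and 0.00885, edgeR). One window near Plekhb1 (chr7:100674305-100674506) held 0.433, 0.132, 0.137 and 0.177 CPM in R26WT and 0, 2.79, 0.522 and 1.21 CPM in R26TIR1(F74G) mice. The library left out thus had no read there. With all libraries the log2 fold change was 2.60 (SE 0.55, adjusted p = 0.229, edgeR). On day 7 this window held 0.775, 0.116 and 1.20 CPM in R26WT and 0.909, 1.07 and 1.67 CPM in R26TIR1(F74G) mice, with overlapping groups.

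By region, 0 of 2899 broad regions passed on day 3 in edgeR (percentage called among all 156098 regions, 0). An unadjusted p under 0.05 was found for 471 (16.25%, against 7.53% of all regions). DESeq2 called 26 of all regions, of which 11 were broad. The smallest adjusted p in edgeR was 0.0882, for chr3:71563652-71564285, an intergenic region of 5 windows with no protein-coding start within 1 Mb. It held 1.37, 1.61, 1.53 and 1.37 CPM per window in R26WT and 2.70, 2.87, 2.68 and 3.15 CPM in R26TIR1(F74G) mice (log2 fold change 0.97, SE 0.14), without overlap, and it passed when regions with a mean count under 50 were left out (adjusted p = 0.0310, edgeR). In the body of Iftap, 54950 bp from the recombinase gene Rag2, a region held 0.727, 0.529, 0.451 and 0.696 against 1.91, 1.22, 1.59 and 1.11 CPM (1.26, SE 0.22, adjusted p = 0.342, edgeR). In Sec23ip, for a protein of vesicle export from the endoplasmic reticulum, the values were 3.01, 3.06, 3.43 and 2.71 against 1.94, 1.51, 2.35 and 1.64 CPM (−0.70, SE 0.15, adjusted p = 0.492, edgeR). Near the pseudokinase gene Trib2 they were 1.12, 0.959, 1.20 and 1.10 against 0.659, 0.519, 0.770 and 0.429 CPM (−0.88, SE 0.21, adjusted p = 0.509, edgeR). In edgeR with a mean count of at least 10, none of these passed. The groups did not overlap in any of them, but the regions were named for the smallest p-values in their direction. DESeq2 called the region on chromosome 3 (adjusted p = 2.31e-05, DESeq2) and the region in Iftap (adjusted p = 0.00503, DESeq2).

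With both days in one fit and day as a covariate, 2 of 16374 windows passed in edgeR, both higher in R26TIR1(F74G) mice, and the percentage called among all 240778 windows was 0.0112. One was the last window of the same chromosome 3 region (chr3:71564084-71564285). It held 1.99, 1.65, 1.57 and 1.59 CPM in R26WT and 3.96, 3.54, 2.83 and 3.86 CPM in R26TIR1(F74G) mice on day 3, and 2.07, 1.57 and 1.20 against 2.57, 3.16 and 2.78 CPM on day 7. All 7 R26TIR1(F74G) mice were above all 7 R26WT mice (log2 fold change 0.92, SE 0.17, adjusted p = 0.0269, edgeR). The other (chr14:21636636-21636837) was the sixth of 8 windows of a region inside Kat6b, a histone acetyltransferase, with Dupd1, a phosphatase, as the nearest start 77739 bp away. It held 1.12, 0.992, 1.02 and 1.53 against 2.52, 1.93, 3.28 and 2.41 CPM on day 3 and 0.969, 1.45 and 1.5 against 2.30, 2.86 and 2.02 CPM on day 7, again without overlap (1.00, SE 0.20, adjusted p = 0.0429, edgeR). Across the 8 windows of the Kat6b region the log2 fold change over both days ranged from 0.49 to 1.00 and across the 5 of the chromosome 3 region from 0.49 to 0.92. The chromosome 3 call was lost on leaving out any of 7 of the 14 mice, R26WT replicates 1, 2 and 4 and R26TIR1(F74G) replicates 2 and 4 of day 3 and replicate 2 of each genotype of day 7 (adjusted p from 0.0162 to 0.105 over all 14, edgeR). The Kat6b call was kept only on leaving out R26TIR1(F74G) replicate 1 or 2 of day 3 or R26WT replicate 3 of day 7 and was lost for the other 11 mice (0.0331 to 0.155) and when the prefix of mouse names was a covariate (0.149).

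**Figure D4:**
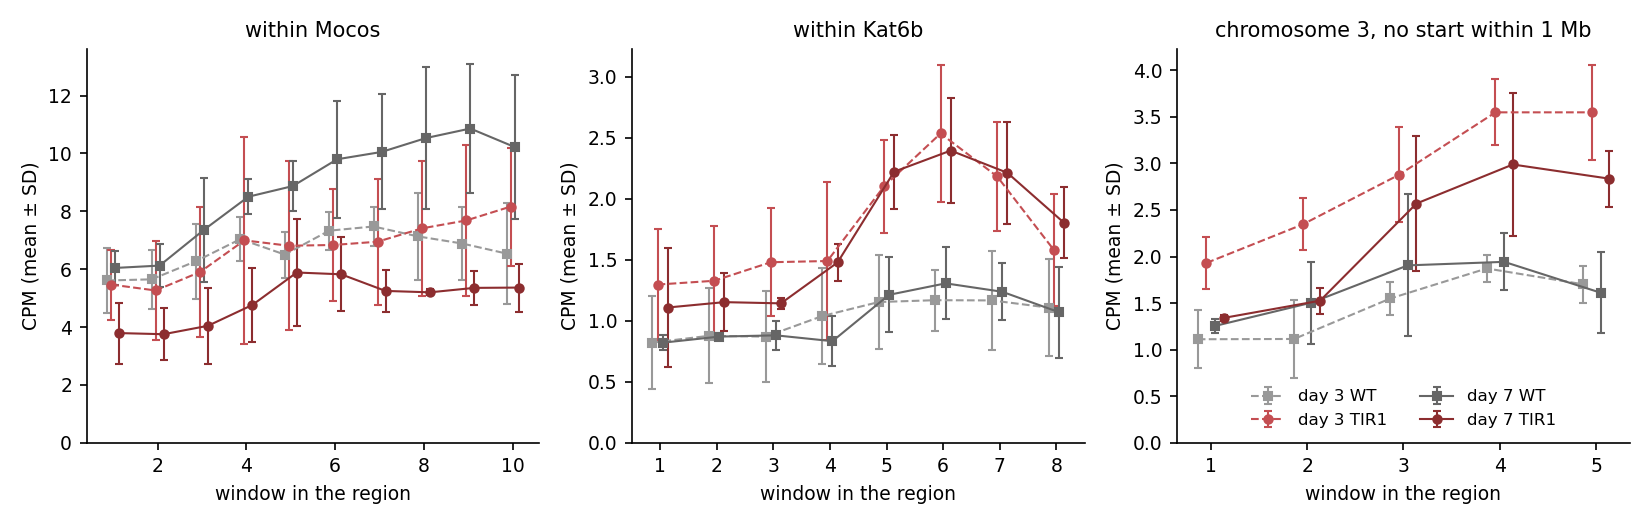
Mean CPM and SD by window along the 3 broad regions that held a called window, for R26WT (squares) and R26TIR1(F74G) (circles) mice on day 3 (dashed) and day 7 (solid). In Kat6b the genotypes are farthest apart at the sixth window, on chromosome 3 at the last window, and in Mocos at the ninth window of day 7.

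For whole regions over both days, 0 of 2899 broad regions passed in edgeR (percentage called among all 158380 regions, 0.000631). An unadjusted p under 0.05 was found for 288 (9.93%, against 6.90% of all regions). With the highest window of each region alone it was found for 179 broad regions. DESeq2 called 110 of all regions, of which 6 were broad. Leaving out R26WT replicate 1 of day 7, 2 of all regions passed. Of these 1 was broad, that on chromosome 3 (adjusted p = 0.0158 without that mouse and 0.118 with it, edgeR). The Kat6b region had a log2 fold change of 0.75 (SE 0.14, adjusted p = 0.196, edgeR) and passed with its highest window alone (0.0319). In the other direction, a broad region 29245 bp from Cxcr5, the receptor that guides cells to follicles, held 2.06, 1.38, 0.979 and 1.06 against 0.570, 0.814, 1.06 and 0.831 CPM on day 3 and 1.21, 1.05 and 1.55 against 0.740, 0.656 and 0.767 CPM on day 7. The groups overlapped over both days but not on day 7, and the adjusted p was 0.314 (−0.72, SE 0.16, edgeR), while DESeq2 called this region (0.0312). Windows near Tmem163, a zinc transporter (−1.13, SE 0.31, adjusted p = 0.373, edgeR), and Hmgn2, a nucleosome-binding protein (−1.14, SE 0.31, adjusted p = 0.378, edgeR), did not pass.

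Between day 7 and day 3, with genotype as a term, 0 windows of broad regions passed in edgeR (percentage called, 0.00332). An unadjusted p under 0.05 was found for 911 (5.56%, against 5.48% of all windows). DESeq2 called 12 of all windows, of which 1 lay in a broad region. Day and collection cannot be told apart here. The window of a broad region called by DESeq2 covers the start of Rdm1, a gene of DNA repair (chr11:101627078-101627279). It held 10.5, 10.9, 11 and 11.5 CPM in R26WT and 11.2, 11.5, 9.09 and 9.73 CPM in R26TIR1(F74G) mice on day 3. On day 7 it held 16.5, 14.4 and 13.9 against 15.9, 12.8 and 14 CPM, so all day 7 mice were above all day 3 mice (log2 fold change 0.46, SE 0.10, adjusted p = 0.229 in edgeR, 0.0062 in DESeq2). By region 0 broad regions passed (percentage called, 0.000631). An unadjusted p under 0.05 was found for 321 (11.07%, against 5.41% of all regions). With the highest window of each region alone it was found for 194 broad regions. DESeq2 called 23 of all regions, of which 0 were broad. Leaving out R26WT replicate 3 of day 7, 17 of all windows and 4 of all regions passed. Of these, 1 window (adjusted p = 0.0440, edgeR) and 1 region (0.0334) were broad. Regions in Itpr2, a calcium channel of the endoplasmic reticulum (−0.81, SE 0.17, adjusted p = 0.564, edgeR), and in Elovl5, a fatty acid elongase (−0.46, SE 0.11, adjusted p = 0.708, edgeR), had the smallest p-values among those with less signal on day 7.

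For the interaction, 0 windows and 0 regions passed in edgeR and in DESeq2 (percentage called, 0 for both). An unadjusted p under 0.05 was found for 1215 windows of broad regions (7.42%, against 6.32% of all windows). By region it was found for 435 (15.01%, against 6.21% of all regions). The windows named for their p-values included those near Irf1 (1.46 on the log2 scale, SE 0.36, adjusted p = 0.504, edgeR), Sec23ip (1.80, SE 0.43, adjusted p = 0.493, edgeR) and Ism1, a secreted protein (−2.44, SE 0.54, adjusted p = 0.476, edgeR). At the start of Vegfc, whose promoter is printed above, the region held 1.10, 0.761, 1.25 and 1.01 CPM in R26WT and 1.80, 1.85, 1.79 and 1.77 CPM in R26TIR1(F74G) mice on day 3. On day 7 it held 1.20, 1.26 and 1.77 against 0.954, 1.16 and 0.970 CPM. Groups did not overlap on either day, in opposite directions, but the region was named for its small p-value in the interaction. The interaction was −1.24 (SE 0.25, adjusted p = 0.644, edgeR). In Pik3ca, a catalytic subunit of PI3 kinase, it was 1.44 (SE 0.31, adjusted p = 0.644, edgeR).

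In the gene lists 0 broad regions passed in edgeR in any genotype comparison. The medians of log2 fold change for T lineage factors (40 regions) were −0.07 on day 7 and 0.11 on day 3, and for Treg identity genes (9 regions) −0.04 and 0.06, beside −0.04 and 0.10 over all 2899 broad regions. For factors of effector Treg cells (14 regions) they were 0.05 and 0.17, for T cell receptor signalling (13) −0.06 and 0.08, and for cytokine signalling (10) −0.21 and −0.15.

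As a class, windows of broad regions had a median log2 fold change of 0.08 on day 3, with 60.6% above 0, against 0.01 and 51.2% over all windows tested. Single windows with a mean count under 30, which resemble them in level, had 0.08 and 59.0%. On day 7 the medians were −0.04 in broad regions, −0.01 over all windows and −0.04 in weak single windows, and for the interaction −0.12, −0.01 and −0.12. The part of level, depth or the B cell windows in these medians was not tested.

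The share of a library's counts that lay in windows of broad regions was 3.23, 3.07, 2.97 and 2.85% in R26WT and 3.15, 3.14, 3.47 and 3.30% in R26TIR1(F74G) mice on day 3. Groups overlapped, with 3.03% ± 0.158 (SD, n = 4) against 3.26% ± 0.157 (SD, n = 4), a difference of 0.234 percentage points (exact permutation test, two-sided, p = 0.114). On day 7 the shares were 2.93, 2.98 and 3.35% in R26WT and 3.00, 3.09 and 2.95% in R26TIR1(F74G) mice. The means were 3.09% ± 0.230 (SD, n = 3) and 3.01% ± 0.0702 (SD, n = 3), a difference of −0.0747 points (exact permutation test, two-sided, p = 0.90, where 0.10 is the smallest value possible). Without R26WT replicate 3, the shallowest mouse of day 7, the difference was 0.0571 points. Weak single windows moved alongside, with 5.37% against 5.87% on day 3 and 5.70% against 5.40% on day 7, and the 20000 strongest windows the other way, with 46.8% against 44.7% and 45.8% against 46.2%.

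**Figure D5:**
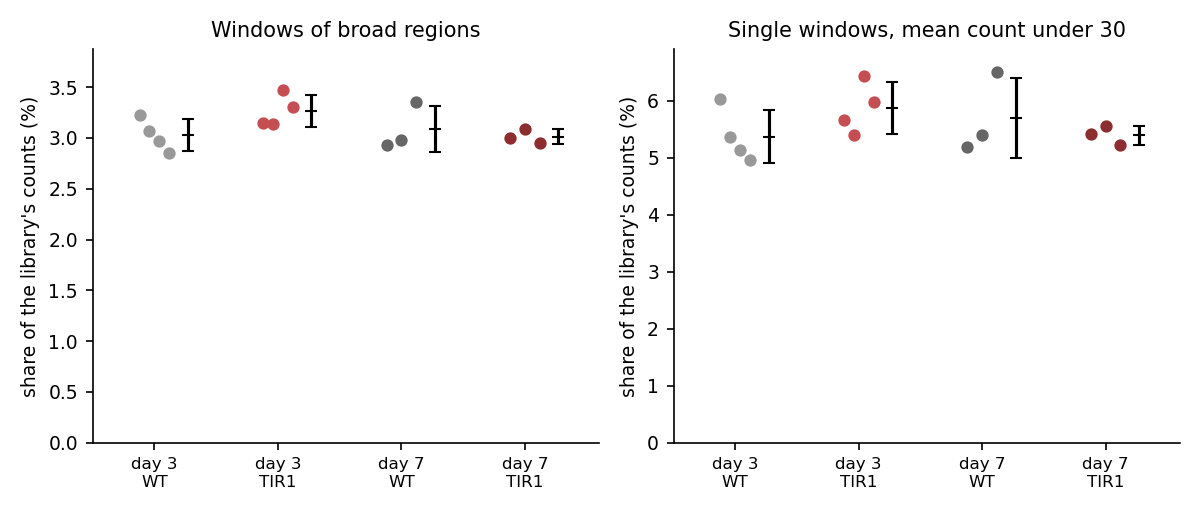
Share of each library's counts in windows of broad regions (left) and in single windows with a mean count under 30 (right) by mouse (points), with mean and SD, for R26WT (WT) and R26TIR1(F74G) (TIR1) mice on days 3 and 7. Shares in broad regions lie between 2.85% and 3.47%, genotypes overlap on both days, and both panels show the same order of most mice.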

How the data were processed

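ATAC-seq libraries of sorted Treg cells were aligned by the authors with Bowtie2 to mm10, peaks were called with MACS2, peaks that reproduced between replicates were merged, and reads in windows at their summits were counted with featureCounts. The deposited values are these raw counts, not normalized. How reads overlapping several windows were assigned is not given in the sources used here.

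Overlapping windows were joined as described, and regions were annotated to the nearest of 21184 protein-coding start sites of GRCm38. Counts were tested with edgeR 4.0.16 (quasi-likelihood, TMM, mean count of at least 10, Benjamini-Hochberg over all windows or all regions, threshold 0.05) in R 4.3.3. Genotype was tested within each day and over both days in one fit with day as a covariate, and day and the interaction were tested too. CPM is counts per 1000000 counts in windows. SDs are between mice. Shares of counts were compared by exact permutation tests. The code was tested on simulated data.

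Named were the 12 regions of most windows, the 8 of highest CPM, the top windows and regions of each comparison by fold change past the threshold or otherwise by p-value, broad regions of listed genes, and genes the study names (some items are not reported here); the clusters, the genes with most broad regions and the printed promoters were chosen after their values were seen. Members and gene lists were chosen with earlier results of these data known. Alternatives were DESeq2 1.42.0, other scalings and filters, single libraries left out, a replicate block, the mouse name prefix, all 14 libraries, other definitions of broad and, added after seeing the data, windows that do not overlap one another. The p-values rest on 3 or 4 mice per group, and depth limits weak windows most.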

Additional observations from a re-analysis of the deposited data

Results flagged for a closer look

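Within groups of 4 mice, 16 of 196 groups examined among the named windows and regions had a highest or lowest mouse set apart from the other three by more than the critical gap (Dixon's test at 95%, by which chance marks about 1 in 20). All values are CPM (per window for regions) on day 3, and with groups of 3 no day 7 group was examined.

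In R26WT mice the highest value stood apart in the named window near Irf1 (4.50, next 2.71), in the Irf1 region (4.40, next 2.77), in a window near Plekhb1 (0.433, next 0.177), and in regions of Fcamr (1.85, next 1.38), Jak1 (1.77, next 1.04), Foxo1 (1.61, next 1.18) and Ctla4 (3.41, next 2.99). The lowest value stood apart in Ccr6 (2.06, next 2.63).

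In R26TIR1(F74G) mice the highest value stood apart in the window in Ism1 (1.85, next 1.45) and in regions of Cd44 (2.72, next 2.21), Nfkb1 (1.7, next 1.00), Tnfaip3 (2.23, next 1.87) and Cd5 (3.96, next 2.63). The lowest value stood apart near Nkx2-5 (0.647, next 1.24), at Extl1 (0.936, next 1.95) and near Foxo1 (0.462, next 1.06). The cause was not tested.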

How the results depend on the processing

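Counts of windows or regions of broad regions past the threshold were small and moved with the processing, and the cause was not tested. For the settings that follow, parentheses give the number called over all windows or all regions. On day 7 the 2 windows (11) became 0 with DESeq2 (0), with the prefix of mouse names as a covariate (0) or with all 14 libraries (1). They became 4 at a mean count of at least 50 (34) and 5 with a replicate block (52). Over both days the 2 windows (27) became 0 at a mean count of at least 50 (83). They became 1 with DESeq2 (155), the prefix (15), the replicate block (14) or regions of at least 8 windows (27). Between days, 1 window passed with DESeq2 (12) and 1 at a mean count of at least 50 (9). Of regions, 3 passed on day 7 with DESeq2 (10), and 1 each with the highest window (9) and with windows that do not overlap one another (5). On day 3, 11 passed with DESeq2 (26) and 1 at a mean count of at least 50 (1). Over both days 6 passed with DESeq2 (110) and 1 with the highest window (30). Leaving out 1 library, the windows ranged from 0 to 4 on day 7, 0 to 5 on day 3, 0 to 5 over both days and 0 to 1 between days, and the regions from 0 to 1 over both days and 0 to 1 between days. The difference in share of counts ranged from −0.155 to 0.0571 points on day 7, where it changed sign without R26WT replicate 3, and from 0.165 to 0.300 on day 3. The number of broad regions was 7488, 1125 or 182 with a minimum of 4, 6 or 8 windows and 1446 when an overlap of at least 50 bases was required. Of 764 values for single named windows and regions under the alternatives, 713 kept direction and side of the threshold, 34 lost and 17 gained the call, and 0 changed sign. Replicate numbers were shared between genotypes, but deviations of mice with the same number correlated only from −0.0394 to 0.0616. Not every mouse correlated best with its own number. The main fits did not pair mice, and with 3 or 4 mice per group this check cannot exclude pairing.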
